A study of Mus musculus with 17 samples.

Results

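The 10 genes described here encode the NF-kB subunits and their inhibitors in sorted mouse blood progenitors. They were taken by symbol from a table of raw counts (Nfkb1, Nfkb2, Rel, Rela, Relb, Nfkbia, Nfkbib, Nfkbie, Nfkbiz and Tnfaip3) and make up 10 of its 35321 genes. All 10 passed the filter on low counts, as did 14920 genes in all. RNA with a poly(A) tail was sequenced in 17 libraries. The cells are hematopoietic stem and progenitor cells, from which blood is formed. They were sorted from the bone marrow of wild-type C57BL/6J mice, an inbred strain, after an intraperitoneal injection. The control group received phosphate-buffered saline (PBS) and holds 5 libraries, titled day 0. A group of 3 libraries came from mice given lipopolysaccharide (LPS, an outer-membrane component of bacteria that provokes inflammation) and harvested after 24 h, and another group of 3 was harvested after 72 h. In a further 2 groups of 3 libraries, harvested after 24 h and 72 h, LPS was given with a blocking antibody to the receptor of interleukin-10 (IL-10R). They are called the antibody groups here. The amounts were 5 of LPS and 100 of antibody, in micrograms by the series' design text and in milligrams by the labels' protocol. The labels name no control antibody for the mice given LPS alone, and no age, sex or pooling. The study's title concerns impaired IL-10R signalling, inflammation and exhaustion of hematopoietic stem cells.

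NF-kB is a family of transcription factors that wait in the cytoplasm, bound to inhibitors of the IkB family. Signals such as LPS acting on Toll-like receptor 4 switch on a kinase that marks IkB for destruction, and the freed dimers enter the nucleus and switch on genes of inflammation and survival. Among their targets are genes of their own inhibitors, which gives a negative feedback loop. In blood progenitors the pathway is known for its part in emergency myelopoiesis and in the loss of stem cell function under lasting inflammation. IL-10 is a cytokine that restrains such responses. The data are RNA levels, so they carry no measure of the proteins, of their breakdown or of their place in the cell.

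Promoter sequences are shown for 6 members, because each of them was called between the times after LPS (Rel, Nfkbie and Nfkbib), stood out in antibody library 1 (Nfkb2, Nfkbia and Tnfaip3), or, like Nfkbie, both. RefSeq (GRCm38.p6) gave 10 promoters for 7 of the 10 members, and Nfkb1, Relb and Nfkbiz were not matched. Each line is the 250 bases before a RefSeq start of the gene, read 5′ to 3′ on the gene's strand, with matches to the kB consensus in capitals. The RefSeq starts differ from the outermost GENCODE starts given for the genes further on, and the windows of Nfkb2 and Nfkbib lie wholly, and that of Tnfaip3 almost wholly, inside the GENCODE gene. Matches were searched on both strands, and adjoining capitals can be overlapping matches.
Nfkb2, chr19:46304487-46304736, plus strand: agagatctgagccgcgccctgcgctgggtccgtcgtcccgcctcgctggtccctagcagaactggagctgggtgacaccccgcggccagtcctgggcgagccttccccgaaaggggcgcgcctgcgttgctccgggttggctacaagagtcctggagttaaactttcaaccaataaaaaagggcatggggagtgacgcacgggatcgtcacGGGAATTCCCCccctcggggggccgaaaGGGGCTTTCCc
Nfkbia, chr12:55492648-55492897, minus strand: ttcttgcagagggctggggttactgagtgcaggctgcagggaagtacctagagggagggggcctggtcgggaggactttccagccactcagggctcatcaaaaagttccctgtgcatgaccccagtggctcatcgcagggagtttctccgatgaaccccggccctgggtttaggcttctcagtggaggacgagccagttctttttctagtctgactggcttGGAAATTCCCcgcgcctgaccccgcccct
Tnfaip3, chr10:19015411-19015660, minus strand: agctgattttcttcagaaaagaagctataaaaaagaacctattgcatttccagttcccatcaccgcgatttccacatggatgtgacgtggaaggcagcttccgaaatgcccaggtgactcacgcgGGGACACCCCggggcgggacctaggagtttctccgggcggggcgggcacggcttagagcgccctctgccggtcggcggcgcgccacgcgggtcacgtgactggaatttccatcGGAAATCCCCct
Rel, chr11:23770970-23771219, minus strand: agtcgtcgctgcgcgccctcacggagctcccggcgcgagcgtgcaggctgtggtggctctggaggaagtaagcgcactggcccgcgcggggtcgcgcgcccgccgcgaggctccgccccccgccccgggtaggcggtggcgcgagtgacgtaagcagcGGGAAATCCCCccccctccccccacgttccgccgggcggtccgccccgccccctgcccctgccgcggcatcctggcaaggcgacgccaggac
Nfkbie, chr17:45555450-45555699, plus strand: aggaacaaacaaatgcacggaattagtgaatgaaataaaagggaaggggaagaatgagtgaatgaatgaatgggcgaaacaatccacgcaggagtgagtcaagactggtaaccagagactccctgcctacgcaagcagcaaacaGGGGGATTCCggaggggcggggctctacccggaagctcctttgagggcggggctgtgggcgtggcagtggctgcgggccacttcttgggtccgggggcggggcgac
Nfkbib, chr7:28766645-28766894, minus strand: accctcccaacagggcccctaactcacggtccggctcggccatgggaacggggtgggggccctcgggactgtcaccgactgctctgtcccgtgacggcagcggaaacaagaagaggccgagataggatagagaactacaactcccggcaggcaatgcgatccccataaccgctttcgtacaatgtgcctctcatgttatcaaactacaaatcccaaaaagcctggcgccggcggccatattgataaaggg
The kB consensus, a motif of 10 bases, was present in a window of 5 of the 7 members. It was absent from the windows of Rela and Nfkbib and from another window of Tnfaip3, which is not shown. Of all 32851 promoter windows of the same length, 7.25% held it, a share per window and not per gene, and some members have several windows. The matches nearest to a start lay at -11 in Nfkb2, -12 in Tnfaip3 and -29 in Nfkbia, counted from that RefSeq start, whereas they lay at -91 in Rel and -106 in Nfkbie. A match is a run of letters and says nothing of binding in these cells.

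Totals ran from 10516722 to 16006001 counts per library, and the lowest count of any member in any library was 25 (Nfkbiz, LPS library 1 at 24 h). LPS library 1 at 24 h stood apart, with 16431 genes detected and a scaling factor of 0.799, where the other 16 libraries had 0.947 to 1.12. In every group, 11 of 11 stem and progenitor markers (such as Kit, Cd34 and Flt3) were above 3 counts in a library. With PBS the markers of every other cell type listed below that were present in the counts also passed this rule. It therefore does not identify the sorted cells. The summed level of the stem and progenitor markers was 1749 to 2577 CPM (counts scaled to the library total) with PBS. It was 1093 to 1246 with LPS at 24 h and 1826 to 2401 with LPS at 72 h. In the antibody groups it was 1189 to 1465 at 24 h and 1242 to 1799 at 72 h. Summed levels of 14 monocyte-macrophage markers were 463 to 3460 CPM with PBS and 159 to 184 with LPS at 24 h, and all 14 were detected in both groups. At 72 h the same sum was 250 to 421 CPM with LPS, and in the antibody groups it was 187 to 289 at 24 h and 189 to 537 at 72 h. B-lymphoid and plasma markers gave 392 to 1345 CPM with PBS and 73.4 to 97.6 with LPS at 24 h. The other lists ranged over 110 to 274 CPM with PBS and 106 to 268 with LPS at 24 h for T and NK cells, and over 37.9 to 1515 and 51.4 to 424 CPM for neutrophils, whose marker Ly6g was at 0 in all antibody libraries at 72 h. Erythroid markers (10 genes, all detected) summed to 188 to 352 CPM with PBS, 299 to 659 with LPS at 24 h and 7.17 to 108 with LPS at 72 h. With antibody they spanned 26.3 to 1561 CPM at 24 h and 11.2 to 867 CPM at 72 h. PBS library 2 stood apart in its group for macrophage markers (3460 CPM, the others 463 to 1306) and neutrophil markers (1515 CPM, the others 37.9 to 248). Its macrophage sum exceeded its own stem and progenitor sum (2052 CPM). Among PBS libraries it was the highest for Nfkb2, Relb, Nfkbia, Nfkbie and Tnfaip3, and not for the other members. Marker RNA of the sorted cells and of other cells thus moved between groups, and its part in the members' results was not tested. In bulk libraries fewer cells of a type and less RNA per cell cannot be told apart.

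**Figure D1:**
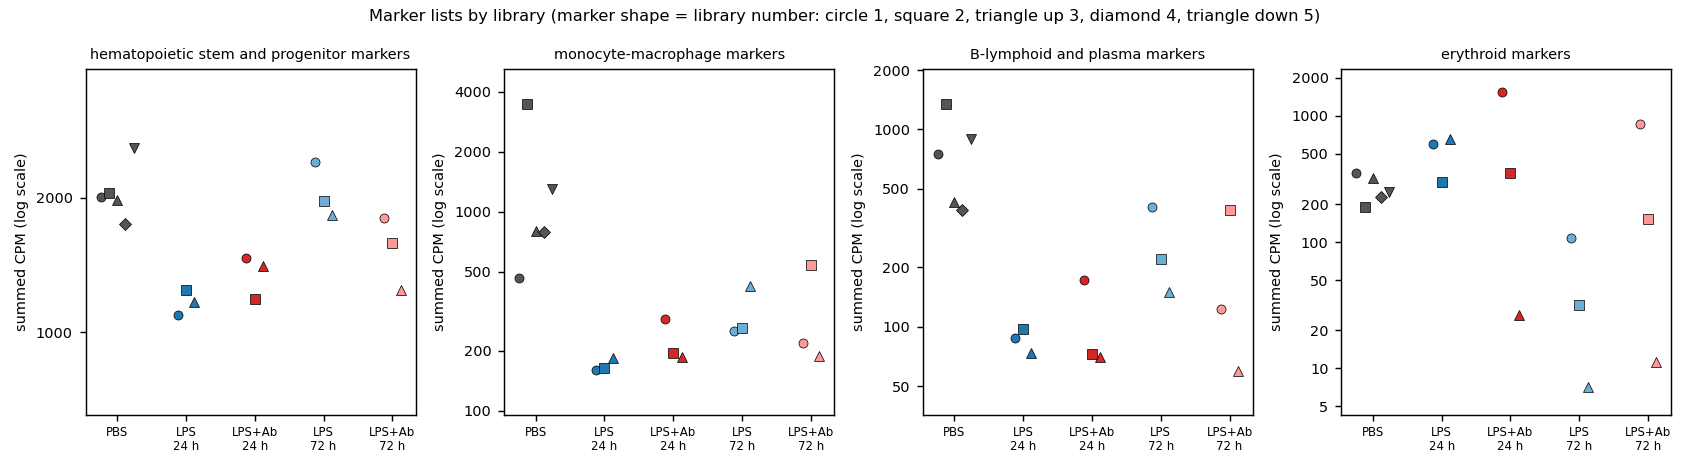
Summed level of 4 marker lists (CPM, logarithmic axis) in each of the 17 libraries, by group, with the point shape giving the library number. Macrophage markers reached their highest sums with PBS (463 to 3460 CPM), though antibody library 2 at 72 h (537 CPM) lay above the lowest PBS library. Erythroid markers were highest in library 1 of each antibody group (1561 CPM at 24 h and 867 CPM at 72 h).

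Compared per length of exon, Rela RNA was the highest of the 10 in PBS libraries, at 25.6 CPM per kilobase. Rela (chr19:5637483-5648130, GRCm38) encodes p65, the main activating subunit. Nfkbia, which encodes the fast-cycling inhibitor IkB-alpha, followed at 22.5 and Nfkb1, which encodes p105 and its processed form p50, at 20.2. Nfkbib and Nfkbie, for the inhibitors IkB-beta and IkB-epsilon, stood at 9.78 and 8.76, and Nfkb2 (p100, processed to p52) and Rel (c-Rel) at 6.52 and 6.05 CPM per kilobase. Tnfaip3 (2.81), Nfkbiz (2.23) and Relb (1.95) were the lowest. The partners of the classical dimer and its main inhibitor were thus the most abundant by this scale, and the RNA of RelB, the subunit of the alternative pathway, was the least. Lengths are unions of GENCODE exons, which may be longer than the transcripts these cells use. The order depends on them: Nfkb1 had a union of 12061 bases and Rela of 3072, and by CPM alone Nfkb1 was higher (mean 243 against 78.8 CPM with PBS).

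Between groups, Nfkbiz, Rel and Nfkbie had the widest ranges of mean level (1.41, 1.25 and 1.19 on the log2 CPM scale). At 24 h after LPS, 4 of the 10 members had changed: Rel, Nfkbie and Nfkbiz fell and Nfkbib rose. Called here means an adjusted p-value below 0.05 over all 14920 tested genes, and by that rule 37.6% of all genes were called in this comparison, 18.5% lower and 19.1% higher. The share among members, 4 of 10, is close to the share among all genes. The median log2 change was -0.53 over the 10 members and -0.03 over all genes. The 4 calls stood in all 17 fits that left out 1 library each. In this comparison 7 of 11 stem and progenitor markers (median -1.30) and 13 of 14 monocyte-macrophage markers (median -3.99) were also called lower. Their part in the members' results was not tested. The split of calls over all genes depended on the scaling: upper-quartile factors moved the median of all genes to -0.16 and the called genes from 50.7% to 36.8% higher, and the 4 members kept their direction. The other comparisons shifted likewise under that scaling, from 48.3% to 32.5% higher for antibody at 24 h against PBS and from 51.4% to 32.8% for antibody at 72 h against PBS. The shift was from 47.2% to 59.2% for LPS at 72 h against 24 h, from 57.1% to 42.4% for antibody against LPS alone at 72 h, and from 63.5% to 49.7% for the interaction.

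Rel (chr11:23736847-23770970), which encodes c-Rel, a subunit best known from lymphocytes, fell to 0.546 times its PBS level. It stood at 38.4, 46.8, 48.2, 41.6 and 51.0 CPM in the 5 PBS libraries and at 18.4, 33.9 and 21.8 CPM in the 3 LPS libraries at 24 h. Every LPS library lay below every PBS library (log2 change -0.87, SE 0.207, edgeR adjusted p = 0.00481).

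Nfkbie (chr17:45555703-45563169) encodes IkB-epsilon, an inhibitor that binds mainly c-Rel and p65 dimers. Its level was 25.3, 31.2, 26.5, 22.6 and 27.7 CPM with PBS and 9.83, 16.0 and 12.2 CPM with LPS at 24 h. The groups did not overlap (-1.07, SE 0.219, edgeR adjusted p = 0.00206).

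Nfkbiz (chr16:55811375-55838899) encodes IkB-zeta, a nuclear member of the family that acts on a set of secondary response genes such as Il6. It went from 9.67, 12.8, 13.1, 8.71 and 11.9 CPM with PBS to 2.32, 4.60 and 6.25 CPM with LPS at 24 h. This was the widest change of the 10 members, again with no overlap (-1.34, SE 0.295, edgeR adjusted p = 0.0031).

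Nfkbib (chr7:28758251-28767512), for IkB-beta, a more slowly turned over inhibitor, moved the other way. The PBS libraries held 24.7, 21.4, 18.0, 24.9 and 17.2 CPM, and the LPS libraries at 24 h held 44.8, 30.1 and 32.1 CPM, all above PBS (0.75, SE 0.176, edgeR adjusted p = 0.00454). Its exons overlap those of the antisense gene Sirt2 by 42 bases and of Ccer2 by 314 bases. Sirt2 had 10271 counts over all libraries and Ccer2 had 34. Without a stated strand setting, reads from the overlaps cannot be assigned.

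The 3 classical inhibitors therefore did not move as a block: Nfkbie fell, Nfkbib rose, and Nfkbia, the prototype feedback target, had 22.2, 21.3 and 34.1 CPM against 29.0 to 43.9 with PBS and did not pass (-0.48, SE 0.366, edgeR adjusted p = 0.318). Tnfaip3 (chr10:19000910-19015657) encodes A20, a ubiquitin-editing enzyme that shuts off signalling upstream of the kinase. It had 7.97, 9.96 and 14.2 CPM with LPS at 24 h, below all PBS libraries (16.8 to 24.3 CPM), yet its change did not pass (-0.92, SE 0.423, edgeR adjusted p = 0.0997). Nfkb1 was likewise below PBS in every LPS library, at 184 to 230 CPM against 234 to 251 CPM, and did not pass (-0.26, SE 0.117, edgeR adjusted p = 0.0906). Tnfaip3 was called without antibody library 1 at 72 h (-0.90) and Nfkb1 without LPS library 2 at 24 h (-0.36). Limma's voom called both (adjusted p = 0.0358 for Tnfaip3 and 0.0438 for Nfkb1). Of the other subunits, Rela (69.7 to 87.5 CPM against 75.7 to 82.1 CPM with PBS), Nfkb2 and Relb overlapped between the groups. In all, 5 members lay wholly below PBS and 1 wholly above, where 22.2% and 20.6% of all genes did, 42.8% together.

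By 72 h after LPS the libraries of 9 members overlapped those of PBS. Rel stood at 48.9, 51.5 and 72.6 CPM, Nfkbie at 33.4, 25.1 and 27.6 CPM and Nfkbiz at 11.3, 8.62 and 9.22 CPM. Nfkbib was at 25.6, 19.0 and 21.3 CPM, with 2 libraries inside the PBS range and 1 just above it. Against PBS 0 of the 10 members were called by edgeR, 0 had an unadjusted p below 0.05, and 0 were called by DESeq2 or by limma's voom. In that comparison 0.0201% of all genes (3) were called by edgeR, 171 genes by DESeq2 and 2170 by voom, and 11.4% had an unadjusted p below 0.05. Nfkb1 alone lay above PBS in every library, at 283, 254 and 309 CPM (0.21, SE 0.115, edgeR adjusted p = 0.5), as did 4.96% of all genes. No member lay wholly below PBS, where 7.01% of all genes did, so 1 of 10 members was separate against 12% of all genes. The macrophage sum at this time (250 to 421 CPM) was below every PBS library. The stem and progenitor sum (1826 to 2401 CPM) lay within the range of PBS (1749 to 2577 CPM). Rel, Nfkbie and Nfkbiz were within or above their PBS ranges apart from 1 library of Nfkbiz at 8.62 CPM. The part of either marker list in the members' levels was not tested.

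Tested directly between the times, 5 of 10 members differed between LPS at 72 h and at 24 h, where 31.1% of all genes were called (14.7% higher and 16.4% lower). Rel was 2.34-fold higher at 72 h (1.22, SE 0.228, edgeR adjusted p = 0.00122), Nfkbie 2.26-fold (1.17, SE 0.238, adjusted p = 0.00217) and Nfkbiz 2.19-fold (1.13, SE 0.32, adjusted p = 0.0146). Nfkb1 was also higher (0.47, SE 0.13, edgeR adjusted p = 0.0126). Nfkbib was lower (-0.70, SE 0.202, edgeR adjusted p = 0.0161). The libraries of these 5 did not overlap between the times, nor did those of Tnfaip3, which was not called (0.72, SE 0.463, edgeR adjusted p = 0.249), while 45.4% of all genes did not overlap (22.4% higher and 23% lower). Without LPS library 1 at 24 h, Nfkbib and Nfkbiz were no longer called (-0.49 and 0.85), and 3 members were. Nfkb1 was not called without LPS library 3 of either time, nor Nfkbiz without LPS library 1 at 72 h, nor Nfkbib without LPS library 2 at 72 h. Stem and progenitor markers (median 0.94, 6 of 11 called higher) and T and NK markers (median 1.23, 3 of 10 called higher) moved between the same groups. Erythroid markers moved as well (median -2.96, 3 of 10 called lower). The part of these markers in the members' results was not tested. This comparison and that of LPS at 24 h with PBS use the same 24 h libraries.

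**Figure D2:**
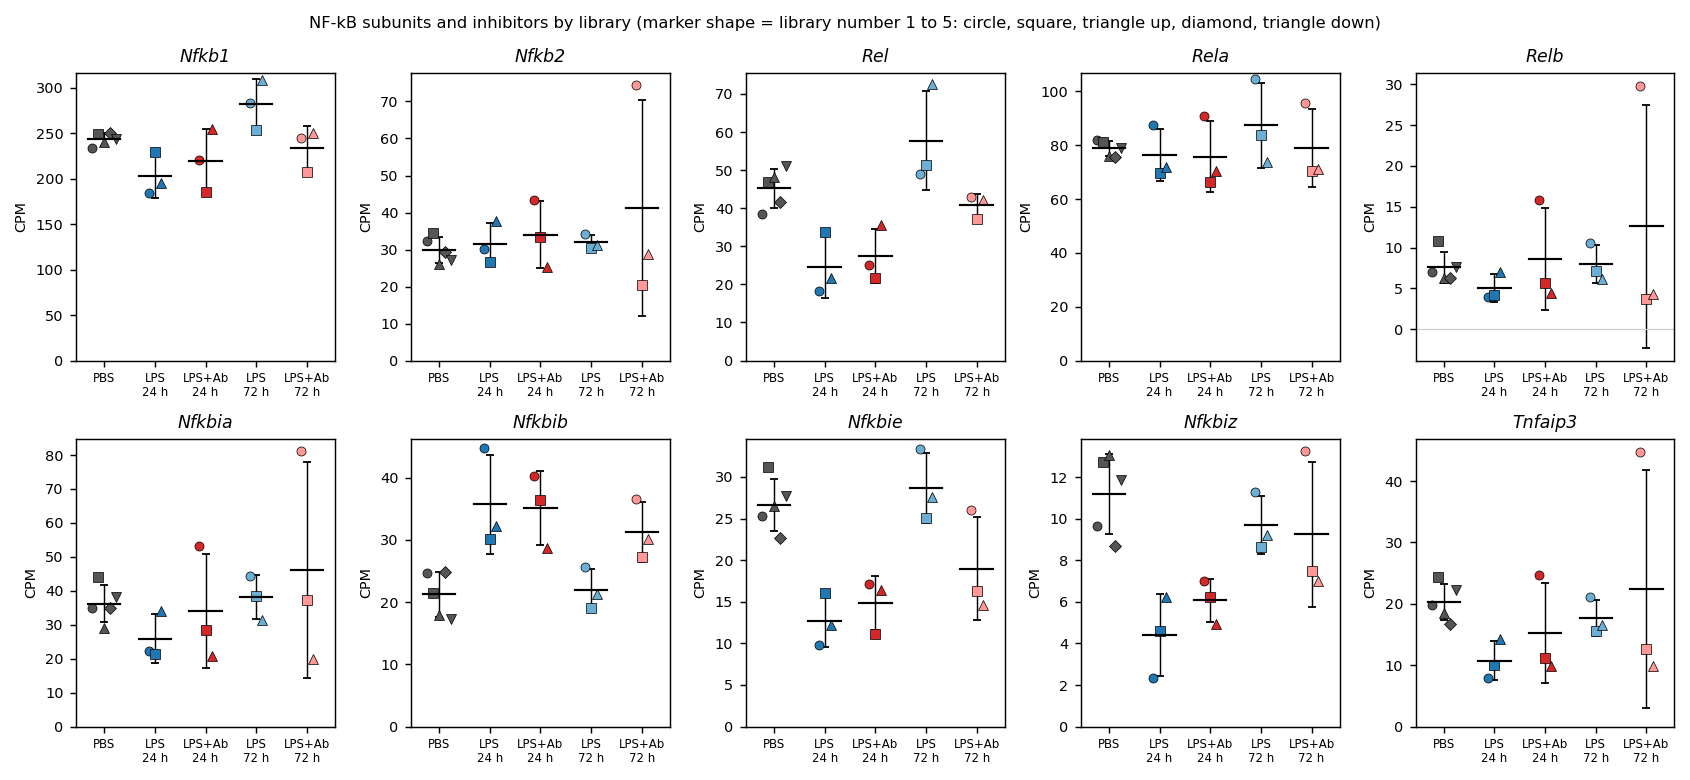
Level of each of the 10 members (CPM, linear axis from 0) in all 17 libraries by group, with points for libraries, a line for the group mean and a bar for the SD. Rel, Nfkbie and Nfkbiz dip with LPS at 24 h and stand near PBS with LPS at 72 h, Nfkbib does the reverse, and Relb has single high libraries in both antibody groups (15.8 and 29.8 CPM).

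With the antibody at 24 h, the same 4 members differed from PBS in the same directions, where 24.2% of all genes were called (11.7% higher and 12.5% lower). Rel was at 25.0, 21.8 and 35.5 CPM (-0.72, SE 0.206, edgeR adjusted p = 0.0224). Nfkbie was at 17.1, 11.2 and 16.4 CPM (-0.84, SE 0.216, edgeR adjusted p = 0.0147). Nfkbiz was at 7.00, 6.25 and 4.96 CPM (-0.88, SE 0.288, edgeR adjusted p = 0.0373) and Nfkbib at 40.3, 36.4 and 28.6 CPM (0.73, SE 0.176, edgeR adjusted p = 0.0114). All 4 were separate from PBS in every library (1 higher and 3 lower), as were 31% of all genes (14.2% higher and 16.7% lower). These comparisons and those of LPS alone share the PBS libraries. The calls depended on single libraries: none of the 4 passed without antibody library 2 at 24 h, and 2 passed without antibody library 1 or without PBS library 5 (Nfkbib and Nfkbie in both). Nfkbiz also lost its call without PBS library 2 or 3 or antibody library 3.

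A difference between LPS with antibody and LPS alone at 24 h was not found for any member. Of the 14920 genes 0 (0%) were called by edgeR, 1 by DESeq2 and 0 by voom. An unadjusted p below 0.05 was found for 1.83% of genes and for 0 members. The changes of members ran from -0.02 for Nfkbib to 0.77 for Relb (SE 0.648). The libraries of all 10 overlapped between the groups, where 3.15% of all genes did not (1.88% higher and 1.27% lower).

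At 72 h the antibody group held Nfkbib above PBS, at 36.6, 27.2 and 30.1 CPM (0.56, SE 0.177, edgeR adjusted p = 0.0483), where 13.2% of all genes were called, 6.81% higher and 6.43% lower. It was the only member wholly above PBS, as were 13.4% of all genes, with 26.9% separate in either direction. This call lay at the threshold and was lost in 8 of the 17 fits that left out 1 library each, with adjusted p from 0.0268 to 0.152. Nfkbie stood at 26.1, 16.3 and 14.6 CPM, with 2 of its 3 libraries below all PBS libraries (-0.49, SE 0.213, edgeR adjusted p = 0.126). Nfkbib and Nfkbie were the members with an unadjusted p below 0.05, which 31.7% of all genes had. Rel (42.9, 37.2 and 42.1 CPM) and Nfkbiz (13.3, 7.47 and 7.00 CPM) overlapped PBS.

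Against LPS alone at 72 h, 0 of 10 members were called by edgeR, where 15.1% of all genes were (8.64% higher and 6.48% lower), and 3 members had an unadjusted p below 0.05, as did 32.5% of all genes. Nfkbib was higher with antibody in every library (0.51, SE 0.202, edgeR adjusted p = 0.093). Rel was lower in every library (-0.50, SE 0.224, edgeR adjusted p = 0.133), and so was Nfkb1, at 245, 208 and 251 CPM (-0.27, SE 0.13, edgeR adjusted p = 0.167). Among all genes, 33.2% did not overlap (17.1% higher and 16.1% lower). Nfkbie was lower on average (-0.60, SE 0.235, edgeR adjusted p = 0.0929), with 1 antibody library inside the range of LPS alone. Without antibody library 1 at 72 h, Nfkbie was called (-0.85, edgeR adjusted p = 0.0329). With the antibody, 0 of the 10 members differed between 72 h and 24 h by edgeR, where 0% of all genes were called (1 gene by DESeq2, 0 by voom) and 4.26% had an unadjusted p below 0.05. Rel was the only member with such a p (0.57, SE 0.226, edgeR adjusted p = 0.918). Whether the antibody effect differed between the times was tested as an interaction, which called 6.35% of all genes and none of the members. The smallest member p there was that of Nfkbie (-0.83, SE 0.334, edgeR adjusted p = 0.143).

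**Figure D3:**
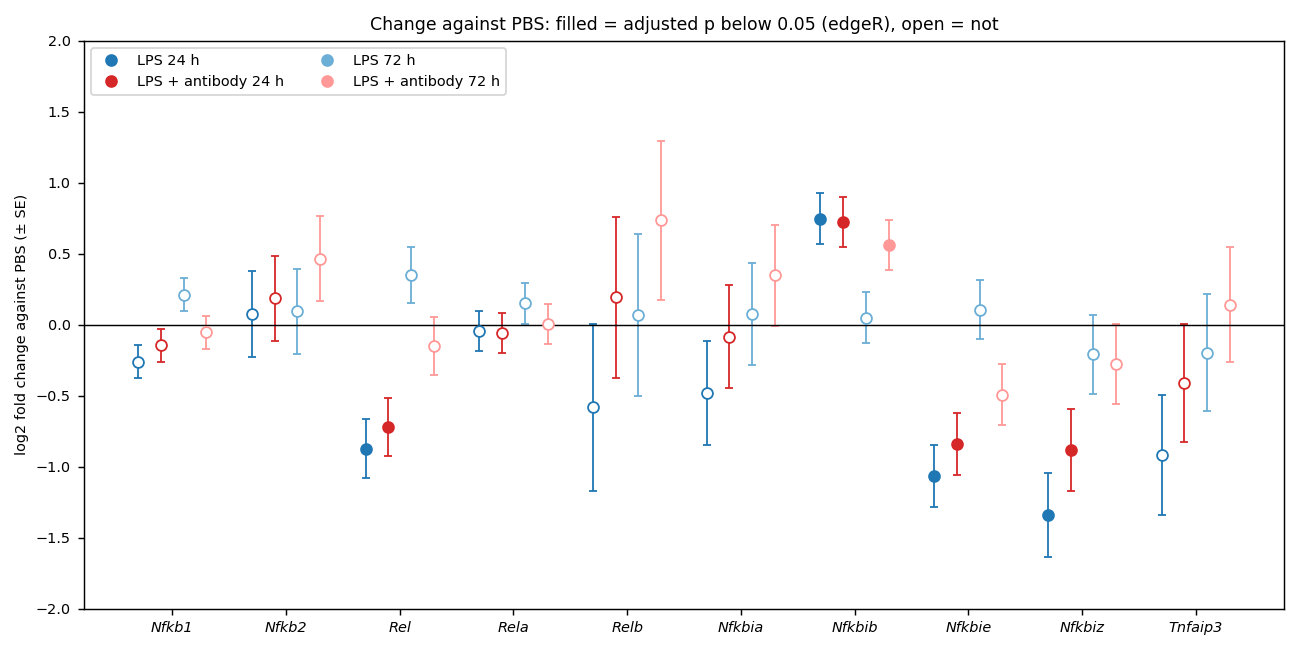
Log2 fold change of each member against PBS in the 4 groups given LPS, with bars for the SE and filled points for adjusted p below 0.05. The 4 filled points of LPS at 24 h recur at smaller or equal size with antibody at 24 h, and at 72 h the only filled point is Nfkbib with antibody (0.56).

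The widest spread among members was seen inside the antibody groups. At 72 h library 1 stood far above the others for Relb, Tnfaip3, Nfkb2 and Nfkbia. Relb (chr7:19606217-19629438), the subunit of the alternative pathway and itself an NF-kB target, was at 29.8, 3.74 and 4.31 CPM in the antibody group at 72 h, or 7.40 times the mean of the other 2 libraries in library 1. Tnfaip3 was at 44.7, 12.6 and 9.90 CPM, a ratio of 3.97. Nfkb2 (chr19:46304320-46312385), the precursor of the RelB partner p52, was at 74.5, 20.6 and 28.7 CPM, a ratio of 3.02. Nfkbia (chr12:55489410-55492647) was at 81.3, 37.2 and 19.9 CPM, a ratio of 2.85. Library 1 was also high for Nfkbiz (1.84) and Nfkbie (1.69). It was close to the others for Nfkb1 (1.07), Rel (1.08), Nfkbib (1.28) and Rela (1.35). So 6 of the 10 members were at least 1.5 times as high as in every other library of the group, where 10.9% of all genes were. The exons of Nfkb2 overlap those of 2 antisense genes, AC114539.1 by 531 bases and Psd by 299 bases. The deposited counts held no entry under the name AC114539.1, and Psd had 807 counts over all libraries.

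At 24 h, antibody library 1 was again the highest for Relb (15.8, 5.70 and 4.39 CPM), Tnfaip3 (24.6, 11.2 and 9.84 CPM), Nfkbia (53.1, 28.3 and 20.8 CPM) and Nfkb2 (43.3, 33.3 and 25.4 CPM). The first 3 of these were at least 1.5 times as high as in both other libraries, where 12.3% of all genes were. In the groups given LPS alone, 0 members met that rule in any of the 3 libraries at 72 h, and 0, 1 and 2 members met it in libraries 1, 2 and 3 at 24 h. Of all genes, 6.23%, 1.8% and 5.82% met it in libraries 1, 2 and 3 at 72 h. At 24 h the shares were 11.2%, 5.31% and 4.04%. The labels give the antibody libraries numbered 1 no shared origin, and these counts are a description with no test. Over all tested genes, deviations of these libraries from their group means correlated at 0.723 between 24 h and 72 h. The antibody libraries numbered 3 gave 0.697 and those numbered 2 gave -0.0217. Whether the recurrence at 24 h is independent of that at 72 h was not tested.

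The group means of these 4 genes at 72 h with antibody rested on that library. Against PBS their log2 changes were 0.73 for Relb, 0.46 for Nfkb2, 0.35 for Nfkbia and 0.14 for Tnfaip3, none called by edgeR. Without library 1 at 72 h they were -0.88, -0.25, -0.32 and -0.82, and none was called. Without both antibody libraries numbered 1, a choice made after seeing the data, Tnfaip3 was called lower at 72 h (-0.83, edgeR adjusted p = 0.0461) and at 24 h (-0.93, edgeR adjusted p = 0.0151). In the same fit Nfkbie was called lower at 72 h (-0.76, edgeR adjusted p = 0.0424). That fit also lost calls, those of Rel at 24 h (-0.64, edgeR adjusted p = 0.0677) and of Nfkbib at 72 h (0.46, edgeR adjusted p = 0.13), both with antibody against PBS.

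Other genes stood out in the same libraries. Of 35 tested genes of a list of NF-kB targets, 25 were at least 1.5 times as high in antibody library 1 at 72 h as in both others, and 21 were at 24 h. Of all genes, 10.9% met that rule at 72 h and 12.3% at 24 h. Cxcl10, a chemokine also driven by interferon, had 429, 3.74 and 0.849 CPM in the 3 antibody libraries at 72 h. Irf1, a transcription factor induced by both interferon and NF-kB, had 363, 67.8 and 79.1 CPM. Traf1, an adaptor gene induced by NF-kB, had 27.0, 3.27 and 1.98 CPM. Traf1, chosen after its values were seen, had 20.4, 7.34 and 1.87 CPM at 24 h. Erythroid markers were also highest in library 1, at 867 CPM at 72 h and 1561 CPM at 24 h. Macrophage markers were not high in it at 72 h (218 CPM, between the other 2 libraries at 189 and 537 CPM), and they were the highest of the 3 at 24 h (289 CPM). The part of other cells in the library's values was not tested.

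**Figure D4:**
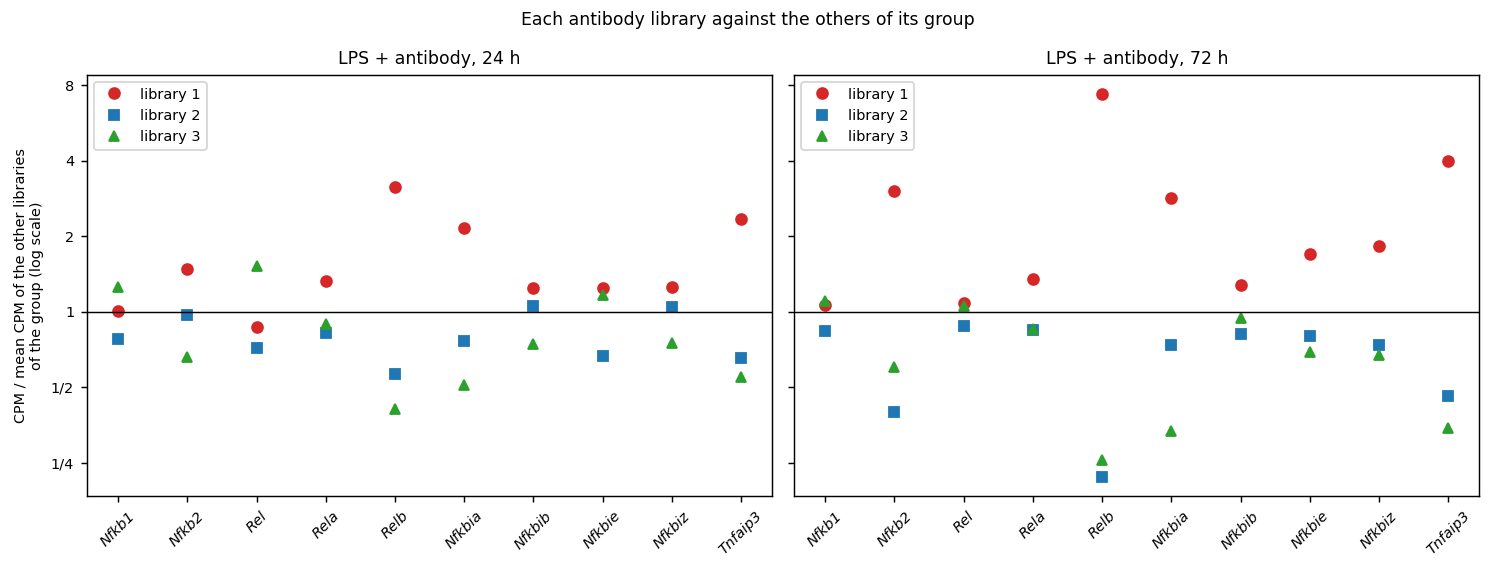
Level of each member in each antibody library divided by the mean of the other 2 libraries of its group (logarithmic axis), at 24 h and 72 h. Library 1 is highest for Relb (7.40 at 72 h and 3.14 at 24 h) and Tnfaip3 (3.97 and 2.34), and lies near 1 for Nfkb1 and Rel at 72 h.

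Genes around the members were read from 4 lists. Of 17 receptors and adaptors, 2 rose and 3 fell with LPS at 24 h against PBS (median -0.21). In that comparison 37.6% of all genes were called, 19.1% higher and 18.5% lower. Myd88, the adaptor of most Toll-like receptors and of the IL-1 receptor, rose from 55.4 ± 7.48 (SD, n = 5) to 101 ± 23.2 CPM (SD, n = 3), with edgeR adjusted p = 0.00126. The IL-1 receptor gene Il1r1 fell (-1.21, edgeR adjusted p = 0.00577), and so did Tnfrsf13c, the receptor for the B-cell factor BAFF (-1.93, edgeR adjusted p = 0.0026). Tnfrsf13c is best known from B cells, whose markers were also lower (above). Ltbr, the lymphotoxin receptor, rose by 0.66 (edgeR adjusted p = 0.00434). At 72 h with antibody Myd88 was still high, at 96.3, 76.8 and 119 CPM, against 50.8, 56.5 and 54.7 CPM with LPS alone (0.85, SE 0.185, edgeR adjusted p = 0.00809).

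Of 25 kinase and ubiquitin genes, 2 rose and 4 fell with LPS at 24 h (median -0.03), where 37.6% of all genes were called. Chuk, which encodes the kinase subunit IKK-alpha, rose by 0.42 (edgeR adjusted p = 0.0154) and Ube2n, a ubiquitin-conjugating enzyme, by 0.65 (edgeR adjusted p = 0.00359). Map3k14, which encodes NIK, the kinase that starts the alternative pathway, fell by 0.87 (edgeR adjusted p = 0.00422), and Traf5 fell by 0.88 (edgeR adjusted p = 0.0065). With antibody at 72 h against LPS alone, 5 genes of this list were higher and 1 was lower, where 15.1% of all genes were called. Traf3, an adaptor that keeps NIK low, was higher (0.74, edgeR adjusted p = 0.0103), and Traf5 was lower, at 3.45, 4.95 and 3.68 CPM against 11.1, 9.97 and 9.58 CPM (-1.34, edgeR adjusted p = 0.00335). For both genes the antibody effect differed between the times by the interaction test, at 0.87 for Traf3 (edgeR adjusted p = 0.0434) and -1.62 for Traf5 (edgeR adjusted p = 0.0153). Without both 24 h libraries numbered 1, 0 genes of this list were called in that test.

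Of 16 other inhibitors and regulators, 3 rose and 4 fell with LPS at 24 h (median 0.01), where 37.6% of all genes were called. Tnip3, a partner of A20, fell (-1.89, edgeR adjusted p = 0.019), as did Tnfaip8l2, a negative regulator of innate signalling known as TIPE2 (-0.71, edgeR adjusted p = 0.0179). Otulin, a deubiquitinase of linear chains, rose (0.60, edgeR adjusted p = 0.0129). With LPS alone at 72 h Tnfaip8l2 stood at 61.9, 67.1 and 55.1 CPM, above all PBS libraries (24.3 to 40.0 CPM), and with antibody at 27.4, 20.6 and 27.7 CPM. For LPS alone at 72 h against PBS, 0 genes of this list were called by edgeR, and 4.96% of all genes lay wholly above PBS. The 2 groups at 72 h did not overlap (-1.28, SE 0.239, edgeR adjusted p = 0.00393), and the antibody effect differed between the times (-1.60, SE 0.336, edgeR adjusted p = 0.015), a call that was also lost without both 24 h libraries numbered 1.

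Of 39 target genes, 35 were tested, and with LPS at 24 h 2 rose and 4 fell (median -0.26), where 37.6% of all genes were called. Sod2, a mitochondrial enzyme against superoxide, rose from 62.7 ± 7.06 (SD, n = 5) to 124 ± 33.2 CPM (SD, n = 3), with edgeR adjusted p = 0.00815, and Myc rose by 0.57 (edgeR adjusted p = 0.034). Ccl3, a chemokine gene, fell from 20.7 ± 4.50 to 3.80 ± 0.979 CPM (edgeR adjusted p = 0.00242), and Sdc4, a syndecan, from 16.0 ± 5.25 to 1.37 ± 0.477 CPM (SD, n = 5 and 3, edgeR adjusted p = 0.00666). Il12b was at 0 in all 3 LPS libraries at 24 h and at 0.757 ± 0.387 CPM with PBS (SD, n = 5). Sod2 was higher with antibody than with LPS alone at 72 h (1.26, SE 0.297, edgeR adjusted p = 0.0119), at 204, 94.0 and 93.5 CPM against 60.1, 53.8 and 49.7 CPM. With LPS at 72 h against PBS 0 genes of the 4 lists were called by edgeR, as were 0.0201% of all genes.

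The genes whose levels followed the members most closely were sought among genes at or above the median level. Over the 17 libraries and on the log2 CPM scale, Rel was most like Cnot6l (Pearson r 0.977), Phactr2 (0.96) and Ifnar1 (0.96), a subunit of the type I interferon receptor. Nfkbie was most like Arhgap25 (0.958), Pnrc1 (0.958) and Map3k14 (0.954). Nfkbiz was most like Etv3 (0.943), Gramd1b (0.925) and Tapt1 (0.923). Libraries of 1 group share their treatment, so these 17 points are not independent, and the values are a description.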

How the data were processed

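The authors deposited 1 table of raw counts, whole-number reads per gene symbol, for the 17 libraries, and 0 of its columns lacked a matching sample. Per the submitters' processing notes, HISAT2 2.2.0, Subread, featureCounts 2.1.1, R 4.3.2 and DESeq2 were used with build GRCm38; the annotation, the strand setting and the treatment of reads that match several genes are not given in the sources used here. Groups and replicate numbers came from the sample titles. The members and the lists were chosen with earlier results of these data known.

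The main test was edgeR's quasi-likelihood test (edgeR 4.0.16, R 4.3.3), in 1 fit of the 17 libraries with a mean per group and TMM scaling. The filter was filterByExpr with a minimum count of 10 and a minimum total of 15, and 14920 genes, with 99.9% of the counts, passed it. Benjamini-Hochberg adjustment covered those 14920 genes in each of 9 comparisons. Standard errors (SE) were derived from the F statistic, as the size of the log2 change over the root of F. CPM is the count scaled to the TMM-adjusted library total, and log2 CPM uses a prior count of 2. The scripts were tested on simulated counts. The labels do not say that the libraries came from separate mice, so p-values measure the spread between these libraries, which may be partly technical.

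From each list, for the comparisons against PBS or between times, at most the 3 largest increases and 3 largest decreases among called genes were eligible to be named. For comparisons between antibody and LPS alone, and for single libraries, genes were named after their values were seen. Genes most like a member were taken for the 3 members with the widest range. Coordinates and exon lengths come from GENCODE vM21 (GRCm38).

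Alternatives were DESeq2's size factors, upper-quartile factors, no filter, a replicate block, the Wald test of DESeq2 1.42.0, voom with quality weights of limma 3.58.1, only the groups compared, and each library left out in turn. As a rule for possible pairing by replicate number, the deviations of all same-numbered libraries had to correlate above 0.1. This held only for PBS and LPS at 24 h (0.158 to 0.191). Differently numbered libraries were not correlated as a baseline, so these values cannot show a pairing, and the labels give none. The main fit used no pairing. The replicate block applied the same replicate effects to all groups, so it is not a paired test of these groups. With it the same 4 members were called for LPS at 24 h against PBS.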

Additional observations from a re-analysis of the deposited data

How the results depend on the processing

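With LPS at 24 h against PBS, 4 to 5 members were called over 17 fits without 1 library, and 4 to 6 over the other alternatives: voom added Nfkb1 and Tnfaip3, upper-quartile factors Nfkb1, and the fit of only the groups compared Tnfaip3. Rel, Nfkbie, Nfkbiz and Nfkbib were called in each. With LPS at 72 h against PBS, with antibody against LPS alone at 24 h, with antibody at 72 h against 24 h and in the interaction, 0 members were called under every alternative run. For antibody at 24 h against PBS, 0 to 4 members were called over such fits, and 2 with the replicate block, where Rel (-0.70) and Nfkbiz (-0.96) were lost. Nfkbiz was also lost with no filter, and Rel without both 24 h libraries numbered 1 and without both antibody libraries numbered 1. For antibody at 72 h against PBS, 0 to 1 were called over those fits. The number was 0 with upper-quartile factors, with no filter, with the replicate block (Nfkbib 0.55, edgeR adjusted p = 0.0534) and with only the groups compared, and 2 with voom. Without both antibody libraries numbered 1 it was 2 as well, and Tnfaip3 turned from 0.14 to -0.83. For antibody against LPS alone at 72 h, 0 to 1 were called over such fits, 1 with the replicate block (Nfkbib, adjusted p = 0.0363), 2 with voom and 1 without both antibody libraries numbered 1. For LPS at 72 h against 24 h, 3 to 5 were called over those fits, 3 without both 24 h libraries numbered 1, 6 with voom (Rela added, adjusted p = 0.0406) and 4 with only the groups compared (Nfkb1 lost, edgeR adjusted p = 0.0554). The block changed no other member call. Only PBS and LPS at 24 h met the rule for pairing, and in the other pairs of groups the correlations of same-numbered libraries ran from -0.415 to 0.723. The highest were between the antibody groups at 24 h and 72 h. They were 0.723 for the libraries numbered 1 and 0.697 for those numbered 3, against -0.0217 for those numbered 2.

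Without both 24 h libraries numbered 1, whose recorded names are written in another style, list counts also moved: other inhibitors from 7 to 2 for LPS at 24 h against PBS, and from 0 to 1 for antibody at 24 h against PBS (2 with upper-quartile factors). For antibody at 72 h against PBS, receptors moved from 1 to 4, kinases from 3 to 5 and other inhibitors from 0 to 1. For LPS at 72 h against 24 h, receptors moved from 4 to 2, other inhibitors from 5 to 2 (3 with no filter) and targets from 8 to 5. For antibody against LPS alone at 72 h, receptors moved from 1 to 2, also with upper-quartile factors, and targets from 2 to 1 with DESeq2's size factors, upper-quartile factors or no filter, and other inhibitors from 2 to 1 with no filter. In the interaction, kinases moved from 2 to 0 (1 with upper-quartile factors or no filter) and other inhibitors from 1 to 0. The number of all genes called, a base for the members' counts, also depended on the setting: for LPS at 72 h against PBS it was 3, and 0 with the block, 99 with only the groups compared, 171 with DESeq2 and 2170 with voom. With the replicate block it went from 3605 to 1721 for antibody at 24 h and from 1975 to 374 for antibody at 72 h against PBS, and from 947 to 333 in the interaction. Voom called 3053 genes for antibody at 72 h against PBS, 4433 (main 2256) against LPS alone and 1585 in the interaction. Without LPS library 1, LPS at 24 h against PBS called 3361 genes in place of 5616. The cause was not tested. Depth limits Relb and Nfkbiz most, whose counts were the lowest.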
